A study of Mus musculus with 6 samples.

Results

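The checkpoint and costimulatory receptors of T cells were followed in mice with JAK3-driven T-ALL, an acute leukemia of T-cell precursors. The set held 10 of the 54532 genes of the deposited table and was taken by gene symbol alone, with every symbol matching 1 row. Of these, 7 encode inhibitory receptors (Pdcd1, Ctla4, Lag3, Havcr2, Tigit, Cd160 and Btla) and 3 encode costimulatory receptors (Cd28, Icos and Tnfrsf9).

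RNA of bone marrow (BM) of C57BL/6 mice, taken on day 100 post transplantation, was sequenced in 6 libraries. The labels put 3 in a Phf6 WT group (WT 1, WT 2 and WT 3) and 3 in a Phf6 KO group (KO 1, KO 2 and KO 3). The design text of the series puts both groups in the context of JAK3 M511I, a mutant form of a cytokine receptor kinase that is active without cytokine. In the methods of the study, a retrovirus carried JAK3 M511I and GFP into hematopoietic progenitors, which were then given to irradiated recipients, and donors and recipients were male. The WT donors of the study were Phf6 fl/y without Cre, and the KO donors were Vav1-Cre;Phf6 fl/y, in which the Vav1 promoter drives Cre in blood-forming cells. A second model with Mx1-Cre was also used. The labels do not name the Cre of these libraries, and the study's text on the transcriptome names the Vav1-Cre model. The digit after Phf in the genotype labels rises from library to library, and the genotype was read as Phf6 from the design text. Whether GFP+ donor cells were separated from cells of the host is not stated in the labels, and nothing there says that the libraries came from separate mice, so p-values measure the spread between these libraries. In bulk RNA, fewer cells of a type and less RNA per cell cannot be told apart.

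T cells need a second signal beside that of the antigen receptor. CD28 and ICOS give it through phosphatidylinositol 3-kinase, and 4-1BB (Tnfrsf9), of the TNF receptor family, gives it through TRAF adaptors. CTLA-4 binds the same ligands as CD28 with higher affinity and restrains activation, and PD-1, BTLA and TIGIT recruit phosphatases through tyrosine motifs in their tails. LAG-3 binds MHC class II, TIM-3 (Havcr2) binds galectin-9, and CD160 shares the ligand HVEM with BTLA. Several of these receptors appear on T cells after stimulation and stay high on T cells that are stimulated for long.

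Cd28, Ctla4 and Icos form a cluster on 1 strand of mouse chromosome 1 (all coordinates are GRCm38). Cd28 (ENSMUSG00000026012) lies at chr1:60716800-60773359, Ctla4 (ENSMUSG00000026011) at chr1:60887000-60915832 and Icos (ENSMUSG00000026009) at chr1:60977927-61000320, all on the plus strand. The gap from Cd28 to Ctla4 was 113640 bases and that from Ctla4 to Icos 62094 bases, with 0 protein-coding genes in either. Pdcd1 (ENSMUSG00000026285, chr1:94038305-94052553, minus strand) lies on the same chromosome outside this cluster. Tigit (ENSMUSG00000071552, chr16:43648867-43664146, minus strand) and Btla (ENSMUSG00000052013, chr16:45224315-45257670, plus strand) share chromosome 16, with 1560168 bases and 21 protein-coding genes between them.

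The 250 bases before an annotated start are shown for the inhibitory genes called in the test below. Of these, 2 were called higher (Ctla4 and Pdcd1) and 2 lower (Tigit and Btla) in the KO-labelled libraries. Windows of the other receptors are not shown. They were taken from RefSeq promoters of GRCm38.p6, where 7 of the 10 genes had an entry. Capitals mark matches, on either strand, to NFAT (GGAAAA) and RUNX (TGTGGT) motifs and to an E box (CACCTG). The window of Ctla4 is chr1:60908775-60909024 (plus strand) and falls in an intron of a longer annotated Ctla4 transcript, that of Pdcd1 is chr1:94052554-94052803 (minus strand), that of Tigit is chr16:43664185-43664434 (minus strand), and that of Btla is chr16:45224087-45224336 (plus strand).
Ctla4: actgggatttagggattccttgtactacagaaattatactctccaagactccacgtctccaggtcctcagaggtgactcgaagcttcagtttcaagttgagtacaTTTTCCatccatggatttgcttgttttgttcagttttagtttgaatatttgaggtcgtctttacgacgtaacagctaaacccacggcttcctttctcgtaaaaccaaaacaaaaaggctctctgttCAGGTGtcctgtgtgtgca
Pdcd1: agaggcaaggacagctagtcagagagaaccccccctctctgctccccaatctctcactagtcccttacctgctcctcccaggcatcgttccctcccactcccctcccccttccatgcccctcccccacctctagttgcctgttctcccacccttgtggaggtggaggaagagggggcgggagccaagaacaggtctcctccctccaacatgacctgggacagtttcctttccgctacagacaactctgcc
Tigit: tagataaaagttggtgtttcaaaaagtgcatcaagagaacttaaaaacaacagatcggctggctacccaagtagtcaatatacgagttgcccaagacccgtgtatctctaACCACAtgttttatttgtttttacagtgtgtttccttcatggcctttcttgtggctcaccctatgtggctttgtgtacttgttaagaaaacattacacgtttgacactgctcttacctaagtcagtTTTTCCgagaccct
Btla: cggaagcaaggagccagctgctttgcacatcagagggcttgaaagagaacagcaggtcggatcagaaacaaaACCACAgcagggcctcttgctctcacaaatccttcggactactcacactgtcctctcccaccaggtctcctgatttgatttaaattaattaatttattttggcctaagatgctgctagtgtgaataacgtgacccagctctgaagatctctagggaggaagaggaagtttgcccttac

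Positions are counted back from the start, with -1 as the base next to it. In the Ctla4 window an NFAT match stood at -145 to -140 and an E box at -19 to -14. The Tigit window held a RUNX match at -140 to -135 and an NFAT match at -14 to -9, and the Btla window held a RUNX match at -178 to -173. No match of the 3 motifs or of AP-1 (TGANTCA) was found in the Pdcd1 window. Over the 32851 promoter windows of the same length, NFAT letters occurred in 20.4%, RUNX letters in 14.0%, the E box in 17.2% and AP-1 letters in 6.75% of windows, so such matches are common.

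Recovered reads came to between 13015823 and 18235095 per library. WT 2 stood apart: its log2 values correlated with those of WT 1 and WT 3 at r = 0.779 and 0.746 across genes, against 0.948 for WT 1 with WT 3 and 0.963 to 0.973 among the KO-labelled libraries. In WT 2, genes shorter than 1000 bases took 17.1% of the reads and ribosomal protein genes 24.9%, against 3.11% to 5.01% and 5.75% to 7.88% in the other libraries, and summed erythroid markers reached an FPKM of 61860 there against at most 503.8 elsewhere. The targeted gene did not check the labels: the 3 WT values of Phf6 were 7.47, 3.67 and 8.02 FPKM, and its KO values (6.73, 5.50 and 5.11) lay between them. Its log2 fold change was -0.073 (limma, adjusted p = 0.893), and a count over the whole gene cannot show whether the floxed exons were lost. The CD3 chains Cd3d, Cd3e and Cd3g were high in both groups, with a geometric mean between 54.5 and 126 FPKM in WT and between 72.8 and 88.9 in KO. Other T cell markers varied: Trbc1 fell from a mean of 434 to 0.779 FPKM and Trac from 238 to 21.5, while Trbc2 was at 538 and 632.

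Ctla4 and Pdcd1 rose in the KO-labelled libraries, while Tigit, Btla and Icos fell. The test was that of limma on log2(FPKM + 1), on which low genes appear to change less than they do. It was adjusted by Benjamini-Hochberg over the 13393 genes that reached 1 FPKM in 3 or more libraries, and a gene was called at an adjusted p under 0.05. Of the 10 receptors, 9 passed the filter, of which 2 were called higher, 3 were called lower and 4 were not called. Among all genes tested, 13.1% were called higher and 13.3% lower, 26.4% in all. Of the 9 receptors, 2 passed the filter through 1 group alone, Pdcd1 through KO and Tnfrsf9 through WT, which fixed the separation of their groups. The KO-labelled libraries lay all above the WT-labelled ones in 2 receptors and all below them in 6 of the 10, with Havcr2 among the 6 although it was under the filter. In all genes tested the same held for 26.2% (above) and 22.9% (below). The plot of receptor levels by library shows both groups.

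**Figure D1:**
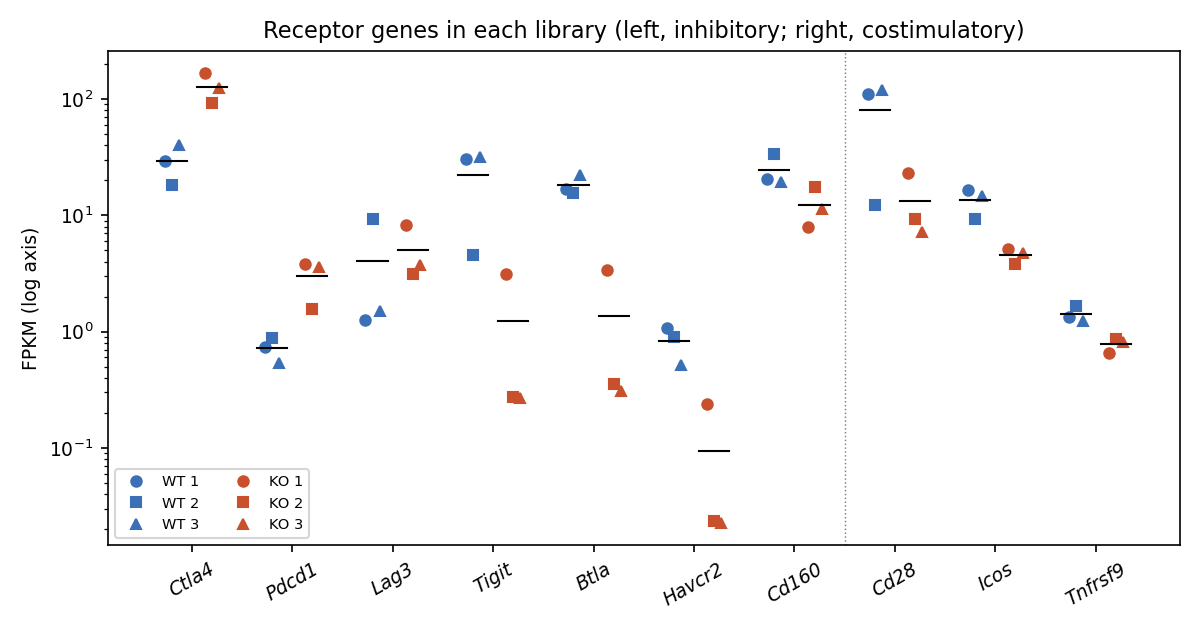
FPKM of the 10 receptor genes (log axis) in each of the 3 WT and 3 KO libraries, 1 point per library, with a bar at the group mean. Ctla4 and Pdcd1 have their 3 KO points above all WT points, Havcr2, Tigit, Btla, Cd160, Icos and Tnfrsf9 have them below, and Lag3 and Cd28 overlap through WT 2.

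Ctla4, the inhibitory counterpart of Cd28, was the most abundant of the 10 receptors in KO. Its FPKM was 29.5, 18.1 and 40.6 in WT 1, WT 2 and WT 3, and 167, 91.7 and 125 in KO 1, KO 2 and KO 3. Every KO-labelled library was more than 2 times as high as the highest WT-labelled one. The mean rose from 29.4 ± 11.3 to 128 ± 37.7 (SD, n = 3 each). On log2(FPKM + 1) the log2 fold change was 2.11 ± 0.39 (SE, 95% interval 1.18 to 3.05, limma, adjusted p = 0.00947). The call held in 20 of 20 alternative settings, with log2 fold changes between 1.81 and 2.97. Ctla4 was 54.2, 14.3 and 58.4 per 100 FPKM of the CD3 chains in WT, and 188, 126 and 172 in KO, so the groups were separate on that scale too. The chains disagreed in WT 2, where Cd3d (561 FPKM) and Cd3g (158) were highest of all libraries and Cd3e (22.6) lowest. This limits every CD3-scaled value of WT 2. Rpl18-ps1, a processed pseudogene, overlaps Ctla4 on the same strand and reached at most 1.3 FPKM.

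Pdcd1 encodes PD-1, the receptor for PD-L1 and PD-L2, and was low in both groups. It was at 0.739, 0.882 and 0.535 FPKM in WT 1, WT 2 and WT 3, from 22, 20 and 16 reads, and at 3.84, 1.58 and 3.57 FPKM in KO 1, KO 2 and KO 3, from 138, 48 and 111 reads. All 3 KO values were above the WT values. Pdcd1 passed the filter through KO alone, so this separation followed from the filter, and the call is not independent of it. The mean rose from 0.718 ± 0.174 to 2.997 ± 1.23 (SD, n = 3 each), a ratio of means of 4.17 (KO over WT). On log2(FPKM + 1) the log2 fold change was 1.17 ± 0.30 (SE, 95% interval 0.46 to 1.88, limma, adjusted p = 0.0291). The call was lost in 8 of 19 alternative settings, among them leaving out WT 1 (limma, adjusted p = 0.0805), WT 3 (0.0806), KO 1 (0.0994) or KO 3 (0.104), and no filter on low values (0.0837).

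Lag3 (ENSMUSG00000030124, chr6:124904361-124911705, minus strand) encodes an inhibitory relative of CD4. Its FPKM was 1.26, 9.36 and 1.499 in WT 1, WT 2 and WT 3, and 8.32, 3.10 and 3.71 in KO 1, KO 2 and KO 3. WT 2 was above all 3 KO libraries, and the other WT libraries were below them. The log2 fold change was 0.54 ± 0.66 (SE, 95% interval -1.04 to 2.12, limma, adjusted p = 0.595), and without WT 2 it was 1.25 (limma, adjusted p = 0.0321). Without WT 1, WT 3 or KO 1 it was 0.15, 0.22 and 0.18. Of the 13393 genes tested, 6967 were called without WT 2, against 3539 with all 6 libraries. Lag3 lies 16139 bases from Cd4, on the same strand and with no annotated gene between them. Cd4, which was chosen after its values were seen, had 1.45, 2.13 and 2.90 FPKM in WT and 98.4, 95.3 and 50.5 in KO.

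Havcr2 (ENSMUSG00000020399, chr11:46454935-46481255, plus strand) encodes TIM-3, which is found on exhausted T cells, NK cells and myeloid cells. It had 1.07, 0.907 and 0.522 FPKM in WT 1, WT 2 and WT 3, from 45, 29 and 22 reads, and 0.237, 0.0233 and 0.0228 FPKM in KO 1, KO 2 and KO 3, from 12, 1 and 1 reads. All KO libraries were below all WT libraries. The gene was under the filter, so it was not tested with the others. With no filter it was called lower (log2 fold change -0.74, limma, adjusted p = 0.0380). The 14 reads of KO against 96 of WT gave a ratio of 0.123 per unit of library size (95% Clopper-Pearson interval 0.065 to 0.217, counting error only). Summed markers of monocytes and macrophages ranged from 606 to 5113 FPKM in WT and from 12.4 to 28.3 in KO, and their part in this result was not tested.

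Tigit, whose product competes with CD226 for the ligand CD155, was close to absent from KO 2 and KO 3. Its FPKM was 30.5, 4.54 and 32.0 in WT 1, WT 2 and WT 3, and 3.15, 0.277 and 0.270 in KO 1, KO 2 and KO 3, the last 2 from 4 reads each. The groups did not overlap, but WT 2 was nearer to KO 1 than to the other WT libraries. The mean fell from 22.4 ± 15.5 to 1.23 ± 1.66 (SD, n = 3 each), a ratio of means of 18.1 (WT over KO). On log2(FPKM + 1) the log2 fold change was -3.25 ± 0.83 (SE, 95% interval -5.23 to -1.26, limma, adjusted p = 0.0300). The call was lost in 8 of 20 alternative settings, among them leaving out WT 1 (limma, adjusted p = 0.0913), WT 3 (0.0784), KO 2 (0.115) or KO 3 (0.114), and it had an adjusted p of 0.00205 without WT 2 (log2 fold change -4.09, limma). With each library rescaled to TPM, which divides by the sum of FPKM of the library, Tigit in WT 2 (5.05) was below KO 1 (12.9).

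Btla, an inhibitory receptor of T and B cells, was lower in KO. It was at 16.7, 15.7 and 22.4 FPKM in WT 1, WT 2 and WT 3, and at 3.40, 0.355 and 0.311 FPKM in KO 1, KO 2 and KO 3. The 3 WT libraries were alike and lay far above KO, where KO 1 had the highest value. The mean fell from 18.3 ± 3.63 to 1.35 ± 1.77 (SD, n = 3 each), a ratio of means of 13.5 (WT over KO). On log2(FPKM + 1) the log2 fold change was -3.26 ± 0.51 (SE, 95% interval -4.49 to -2.04, limma, adjusted p = 0.00513). The call held in 20 of 20 alternative settings, with log2 fold changes between -4.56 and -2.96. Summed B cell markers were at 15.2, 1266 and 21.8 FPKM in WT 1, WT 2 and WT 3 and between 3.17 and 3.79 in KO, while Btla was lowest of the WT libraries in WT 2, and the part of B cells in the difference was not tested.

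Cd160 (ENSMUSG00000038304, chr3:96798763-96829351, minus strand) encodes a glycolipid-anchored receptor of NK cells and CD8 T cells. Its FPKM was 20.7, 33.8 and 19.2 in WT 1, WT 2 and WT 3, and 7.97, 17.5 and 11.4 in KO 1, KO 2 and KO 3. KO values were below WT values, though the gap between KO 2 and WT 3 was narrow. The log2 fold change was -0.96 ± 0.37 (SE, 95% interval -1.84 to -0.086), and it did not pass the threshold (limma, adjusted p = 0.105). It passed with array weights, which give little weight to WT 2 (log2 fold change -0.64, limma, adjusted p = 0.0486). Array weights called 8461 of the 13393 genes tested. With TPM the log2 fold change was -0.18 (limma, adjusted p = 0.751), and KO 2 (69.9 TPM) was above all WT libraries (62.7, 37.7 and 62.8). Pdzk1 overlaps Cd160 on the opposite strand and reached at most 0.286 FPKM.

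The median log2 fold change of the 9 receptors tested was -0.96, against 0.086 over all genes tested. The plot of fold changes gives each receptor in the 6 libraries, without WT 2 and with libraries scaled to their CD3 chains.

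**Figure D2:**
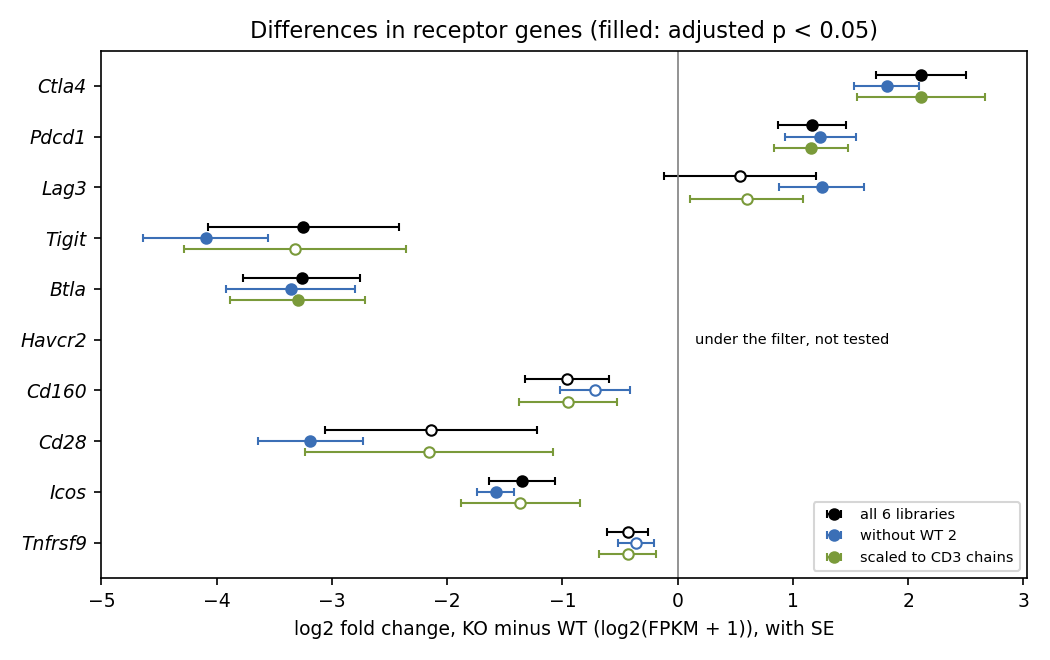
Log2 fold change of KO over WT (limma on log2(FPKM + 1), error bars are standard errors) for the 9 receptors tested, in 3 settings, with filled markers at an adjusted p under 0.05. Ctla4 lies on the right and Btla on the left with filled markers in all 3 settings, and Lag3 and Cd28 are filled only without WT 2.

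Cd28, the main costimulatory receptor of resting T cells, was the most abundant of the 10 genes in WT 1 and WT 3. It was at 111, 12.2 and 119 FPKM in WT 1, WT 2 and WT 3, and at 23.3, 9.30 and 7.24 FPKM in KO 1, KO 2 and KO 3. WT 2 lay within the KO range, and the other WT libraries were more than 4 times as high as any KO library. The log2 fold change was -2.14 ± 0.92 (SE, 95% interval -4.36 to 0.076) and did not pass the threshold (limma, adjusted p = 0.145). Without WT 2 it was -3.19 ± 0.45 (SE, limma, adjusted p = 0.00265). That setting called 6967 of the 13393 genes tested, against 3539 with all 6 libraries.

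Icos, the inducible relative of Cd28, was lower in KO and varied little there. Its FPKM was 16.4, 9.32 and 14.8 in WT 1, WT 2 and WT 3, and 5.12, 3.83 and 4.76 in KO 1, KO 2 and KO 3. All KO libraries were below all WT libraries. The mean fell from 13.5 ± 3.71 to 4.57 ± 0.663 (SD, n = 3 each), a ratio of means of 2.95 (WT over KO). On log2(FPKM + 1) the log2 fold change was -1.35 ± 0.29 (SE, 95% interval -2.04 to -0.67, limma, adjusted p = 0.0155). The call was lost in 7 of 20 alternative settings, among them rescaling to TPM (log2 fold change -0.68, limma, adjusted p = 0.438), where WT 2 (10.4 TPM) was below the KO range of 15.3 to 20.9. It was also lost with scaling to the CD3 chains (limma, adjusted p = 0.117) and on leaving out WT 1 (0.0535), KO 1 (0.0566), KO 2 (0.0814) or KO 3 (0.0665). Rescaling to TPM moved the median of all genes to 0.86 on the log2 scale, and relative to that median Icos was at -1.53. Gm37039 overlaps Icos on the same strand and reached at most 2.45 FPKM.

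Tnfrsf9 (ENSMUSG00000028965, chr4:150914562-150946102, plus strand) encodes 4-1BB, which is induced on activated T cells. It was low, at 1.33, 1.66 and 1.23 FPKM in WT 1, WT 2 and WT 3 and at 0.651, 0.863 and 0.822 FPKM in KO 1, KO 2 and KO 3, from 33 to 56 reads per library. KO values lay below WT values, which followed from the filter, since Tnfrsf9 passed it through WT alone. The log2 fold change of -0.43 (standard error 0.18, 95% interval -0.86 to -0.0098) did not pass the threshold (limma, adjusted p = 0.126), it passed with array weights (adjusted p = 0.0259), and with TPM it was -0.027 (adjusted p = 0.958), with WT 2 (1.85 TPM) below all KO libraries. Array weights called 8461 of the 13393 genes tested. Camta1 overlaps Tnfrsf9 on the opposite strand and had at most 1.42 FPKM, and without stated strand use the reads of the 2 genes cannot be told apart.

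Ctla4 took the larger part of the receptor RNA in KO, and Cd28 in WT 1 and WT 3 took nearly as much as all others together. The summed FPKM of the 10 genes was 229.2, 106.4 and 251.8 in WT 1, WT 2 and WT 3, and 223.0, 128.5 and 157.2 in KO 1, KO 2 and KO 3, with overlap. Ctla4 made up 12.9%, 17.0% and 16.1% of that sum in WT and 74.9%, 71.3% and 79.6% in KO. Cd28 made up 48.4%, 11.4% and 47.2% in WT and 10.5%, 7.23% and 4.61% in KO, and Btla 7.29%, 14.7% and 8.90% against 1.52%, 0.276% and 0.198%. Shares within a library do not depend on how the library was scaled, and the Ctla4 share was separate between the groups with WT 2 included.

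**Figure D3:**
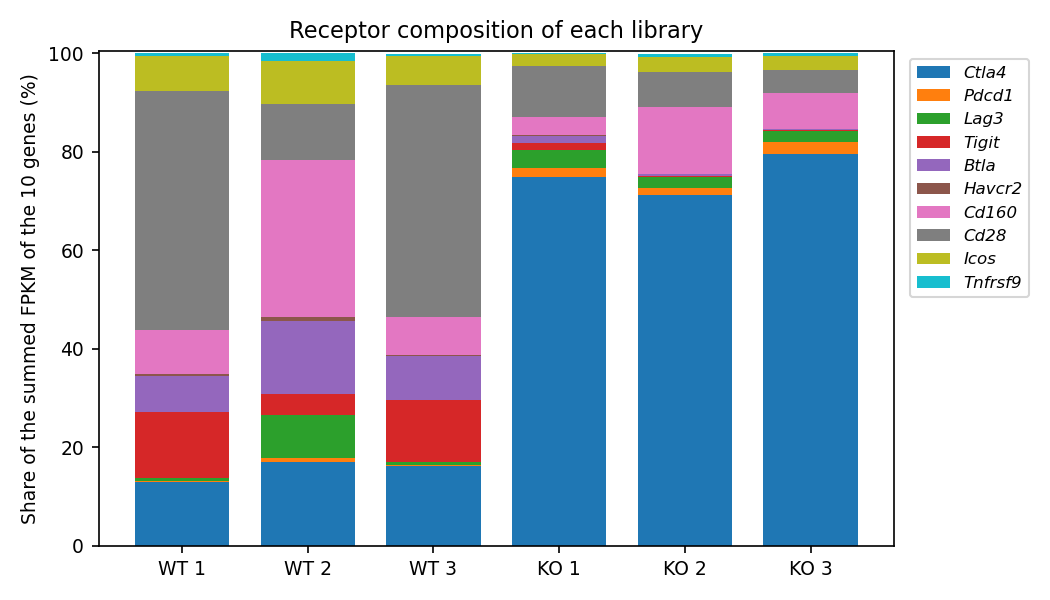
Share of each receptor in the summed FPKM of the 10 receptors, in percent, for each of the 6 libraries as a stacked bar from 0 to 100. Ctla4 takes 12.9% to 17.0% of the WT bars and 71.3% to 79.6% of the KO bars, and Cd28 takes 48.4% and 47.2% of WT 1 and WT 3.

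Within the chromosome 1 cluster Ctla4 rose while its neighbour Icos fell. The ratio of Ctla4 to Cd28 in FPKM was 0.266, 1.48 and 0.341 in WT 1, WT 2 and WT 3, and 7.15, 9.86 and 17.3 in KO 1, KO 2 and KO 3. The ratio of Ctla4 to Icos was 1.80, 1.94 and 2.75 in WT, and 32.6, 23.9 and 26.3 in KO. Both ratios separated the groups, and the second lay in WT 2 between its values in WT 1 and WT 3. The ratio of Cd28 to Icos was 6.77, 1.31 and 8.04 in WT and 4.56, 2.43 and 1.52 in KO, with overlap. These ratios were chosen after the values were seen and were not tested.

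KO 1 had the highest value of the KO-labelled libraries in 8 of the 10 receptors, all but Cd160 and Tnfrsf9, and it held that place in 36.6% of all genes tested. WT 2 was the lowest WT-labelled library for Ctla4, Tigit, Btla, Cd28 and Icos, a place it held in 48.8% of all genes tested.

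The ligands of these receptors were looked at next, since they are made by antigen-presenting cells, stromal cells and T cells alike. Of 14 ligand genes, 10 were tested, of which 2 were called higher and 5 lower, with a median log2 fold change of -1.03, where 13.1% and 13.3% of all genes tested were called. Lgals9, which encodes the TIM-3 ligand galectin-9, rose from 63.2 ± 33.7 to 167 ± 33.9 FPKM (SD, n = 3 each, log2 fold change 1.5, limma, adjusted p = 0.0439). Pvr, which encodes CD155 for TIGIT and CD226, rose from 5.45 ± 1.52 to 13.2 ± 3.24 FPKM (log2 fold change 1.14, limma, adjusted p = 0.0345). Both calls were lost when WT 1, WT 3, KO 1, KO 2 or KO 3 was left out, so the count of higher ligands was 0 without any of these and 2 without WT 2.

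Among the ligands that fell, Icosl, the ligand of ICOS, went from 4.79 ± 0.829 to 0.866 ± 0.545 FPKM (SD, n = 3 each, log2 fold change -1.66, limma, adjusted p = 0.00666). Tnfrsf14, which encodes HVEM for BTLA and CD160, went from 43.7 ± 25.9 to 12.4 ± 0.544 FPKM (log2 fold change -1.59, limma, adjusted p = 0.0303). Ceacam1, another ligand described for TIM-3, fell by 2.70 in log2(FPKM + 1) (limma, adjusted p = 0.0228). It was the 1 ligand gene that passed the filter through WT alone. H2-Aa and H2-Ab1, the MHC class II chains that LAG-3 binds, had log2 values of -4.52 and -4.61 for KO over WT (limma, adjusted p = 0.0447 and 0.0363). H2-Aa was at 303 FPKM in WT 2 against 12.3 and 7.95 in WT 1 and WT 3, and at most 1.00 in KO. The count of lower ligands was 1 without KO 1, KO 2 or KO 3, the 1 being Icosl, and 3 without WT 1.

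Ligands of PD-1 and of CD28 and CTLA-4 were not called with all 6 libraries at equal weight. Cd274, which encodes PD-L1, had 15.2, 4.74 and 16.5 FPKM in WT and 8.21, 5.72 and 8.71 in KO (log2 fold change -0.48, limma, adjusted p = 0.510), but it was called lower without WT 2 (-0.999) and with array weights, and it had the opposite sign with TPM. Without WT 2 and with array weights, 6967 and 8461 of the 13393 genes tested were called. Pdcd1lg2 (0.26, adjusted p = 0.433, limma) and Cd80 (0.059, adjusted p = 0.938, limma) did not pass the threshold either. Cd86 was under the filter, with 1.49, 1.42 and 0.317 FPKM in WT, 0.0733 in KO 1 and 0 in KO 2 and KO 3. Nectin2 and Tnfsf9 were also under the filter, and Fgl1 was listed at 0 in all 6 libraries. Summed dendritic cell markers ranged from 22.9 to 55.8 FPKM in WT and from 1.04 to 1.75 in KO, with Siglech and Cd209a at 0 in all KO libraries, and their part in the ligand values was not tested.

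Among other coreceptors of T cells, Vsir, Cd226, Nt5e and Tnfrsf18 had the smallest p-values of those called. Of 15 genes, 14 were tested, of which 9 were called lower and 1 higher, beside 13.3% and 13.1% of all genes, with a median log2 fold change of -1.72. Of these 14, 4 passed the filter through WT alone, Cd226 and Nt5e among them. Vsir, which encodes the inhibitory VISTA, fell from 89.9 ± 23.9 to 11.6 ± 2.26 FPKM (SD, n = 3 each, log2 fold change -2.83, limma, adjusted p = 0.00134). Cd226, the activating counterpart of Tigit, fell from 23.4 ± 11.6 to 0.543 ± 0.286 FPKM (log2 fold change -3.85, limma, adjusted p = 0.00193). Cd96, a further receptor for CD155, was also called lower (log2 fold change -1.20, limma, adjusted p = 0.0339), a call lost without WT 1, WT 3, KO 1, KO 2 or KO 3. Nt5e (CD73) and Tnfrsf18 (GITR) had log2 values of -3.22 and -2.71 for KO over WT (limma, adjusted p = 0.00454 and 0.00514). The calls of Vsir, Cd226, Nt5e and Tnfrsf18 held in 20 of 20 alternative settings. Slamf1 rose by 1.10 in log2(FPKM + 1) (limma, adjusted p = 0.0468), and its call was lost in 13 of 19 settings, leaving out WT 1, KO 1, KO 2 or KO 3 among them.

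Signalling proteins downstream of the receptors were called at a share near that of all genes with both directions pooled, but all 5 calls were lower in KO. Of 21 genes tested, 5 were called lower and 0 higher by limma, with a median log2 fold change of -0.23, against 26.4% called in either direction over all genes (13.3% lower). At an unadjusted p under 0.05, 2 were higher. Voom on recovered reads also called 0 higher, but quantile normalization called 1 higher, and so did the fit without trend. TPM called 2 higher and 1 lower, and array weights called 2 higher and 11 lower. Traf1, an adaptor of 4-1BB and of other TNF receptors, fell from 23.5 ± 7.60 to 0.617 ± 0.320 FPKM (SD, n = 3 each, log2 fold change -3.90, limma, adjusted p = 0.000504). It was the 1 gene of this list that passed the filter through WT alone. Inpp5d, which encodes the phosphatase SHIP-1, fell from 28.4 ± 7.35 to 5.72 ± 0.545 FPKM (SD, n = 3 each, log2 fold change -2.10, limma, adjusted p = 0.00234). Prkcq, which encodes a protein kinase C of the CD28 pathway, fell by 1.22 (limma, adjusted p = 0.0117), a call lost without KO 2 or KO 3. Pik3cd fell by 1.72 (limma, adjusted p = 0.0382), a call lost without any 1 library other than WT 2. Without WT 2, 8 were lower and 2 higher, and without KO 2 or KO 3, 3 were lower. With rescaling to TPM the median of this list was 0.61, and there the median of all genes was 0.86.

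Transcription factors of T cell activation and exhaustion were examined last. Of 18 genes, 17 were tested, of which 8 were called lower and 2 higher, beside 13.3% lower and 13.1% higher over all genes, with a median log2 fold change of -1.26. Of these 17, 3 reached 1 FPKM in WT libraries alone, namely Eomes, Nr4a2 and Nr4a3. Tbx21 (T-bet) fell from 42.5 ± 9.58 to 1.84 ± 0.843 FPKM and Eomes from 28.6 ± 11.3 to 0.270 ± 0.231 FPKM (SD, n = 3 each). On log2(FPKM + 1) their log2 fold changes were -3.97 and -4.47 (limma, adjusted p = 0.000553 and 0.000613). Nr4a3 and Nr4a2, nuclear receptors induced by antigen receptor signalling, had log2 values of -3.04 and -4.36 for KO over WT (limma, adjusted p = 0.000767 and 0.00209). The calls of these 4 genes held in every alternative setting in which they were tested.

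Ikzf2 (Helios) rose from 0.926 ± 0.762 to 10.9 ± 1.85 FPKM (SD, n = 3 each, log2 fold change 2.70, limma, adjusted p = 0.00271). Tox, a factor of thymocyte development that is also high in exhausted T cells, rose from 1.13 ± 0.662 to 5.17 ± 1.82 FPKM (log2 fold change 1.54, limma, adjusted p = 0.0238), a call lost without WT 1, KO 1 or KO 3. Its relative Tox2 was under the filter, with at most 0.247 FPKM in WT and 1.75, 0.635 and 10.9 in KO. The count of higher factors was 1 without WT 1, KO 1 or KO 3 and 4 without WT 2, and that of lower factors was 5 without KO 1 and 4 without KO 2.

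**Figure D4:**
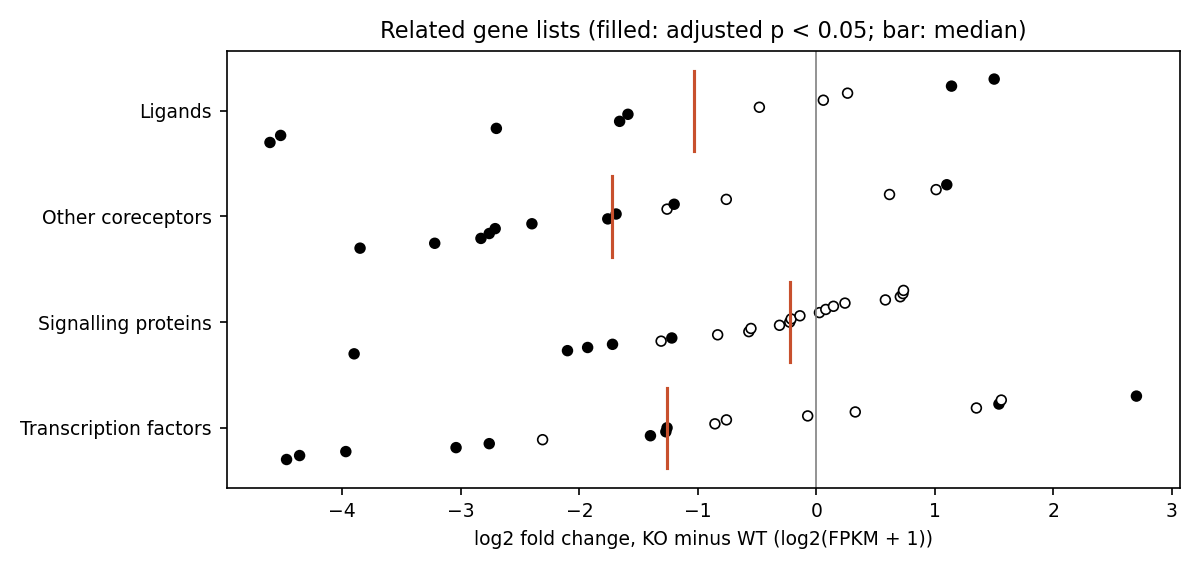
Log2 fold change of KO over WT (limma on log2(FPKM + 1)) for each tested gene of the lists of ligands, other coreceptors, signalling proteins and transcription factors, 1 point per gene, with filled points at an adjusted p under 0.05 and a line at the list median. The medians lie at -1.03, -1.72, -0.23 and -1.26.

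Markers of several cell types moved with the groups, and their part in the receptor differences was not tested. All marker counts from here on stand beside 13.1% of all genes tested called higher and 13.3% called lower. Summed T cell markers overlapped between the groups, at 1846 to 4805 FPKM in WT and 1605 to 2221 in KO. Of 14 genes, 1 was higher (Cd4) and 3 were lower (Trac, Trbc1 and Cd5). With both directions pooled, that share was near the 26.4% of all genes. Without WT 2 the counts were 4 and 6, and there 6967 of the 13393 genes tested were called. Effector CD8 T cell markers were at 1752 to 5290 FPKM in WT and 588 to 663 in KO, with 10 of 11 genes lower, 4 of which passed the filter through WT alone, and only Gzma higher. Thymocyte markers were at 17.6 to 44.8 FPKM in WT and 961 to 1128 in KO, with 8 of 8 genes higher, 2 of which passed the filter through KO alone, and Ptcra was listed at 0 in all WT libraries.

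NK cells, which carry Tigit, Cd160 and Havcr2 too, had summed markers of 218 to 1150 FPKM in WT and 7.23 to 8.55 in KO. Tyrobp made up most of that sum in WT 1 (253.8), in WT 2 (1072) and in KO (6.12 to 8.09), but not in WT 3 (57.8). Ncr1 was at 5.55, 0.884 and 6.96 FPKM in WT, lowest in WT 2, where the sum was highest, and at most 0.139 in KO. Of 9 NK markers 6 were tested, 5 of which passed the filter only through WT, where they were high. All 6 were lower, beside 13.3% of all genes tested. Klra4, Klra8 and Klra9 were listed at 0 in all KO libraries. Of the 9 B cell markers, 6 were tested (4 through WT alone). Of these, 1 was lower (Cd22, which passed through WT alone), 0 without KO 1, KO 2 or KO 3 and 4 without WT 2. Neutrophil markers were at 6674 to 93800 FPKM in WT and 91.4 to 282 in KO, with 10 of 10 lower (1 through WT alone). Of the 10 monocyte and macrophage markers, 8 were tested (3 through WT alone) and 6 were lower. Of the 8 dendritic cell markers, 2 were tested and 1 was lower (Itgax, which passed through WT alone), 2 without WT 2 or WT 3. Of 8 erythroid markers, 7 were tested (2 through WT alone) and 0 were called by limma or voom. At an unadjusted p under 0.05, 3 were lower and 1 higher, and 3 were called lower without WT 1 or WT 2. With a library left out, at most 1 was called higher. Their sum was 128.5 to 61860 FPKM in WT and 16.0 to 117.5 in KO.

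Regulatory T cells carry Ctla4, Icos and Tigit at high levels, and follicular helper T cells carry Pdcd1, Btla and Icos. Of the 6 regulatory T cell markers, 4 were tested. Of these, Il2ra, Ikzf2 and Il10 were called higher and Tnfrsf18 lower, beside 13.1% and 13.3% of all genes tested. The 6 markers summed to 23.5 to 58.4 FPKM in WT and 241 to 262 in KO. Il2ra, which the thymocyte list also holds, made up most of the KO sums, at 219.8, 245.1 and 224.2 FPKM. In WT 1, WT 2 and WT 3 Il2ra was at 0.545, 2.16 and 1.19 FPKM. Most of the WT sums was Tnfrsf18, at 20.4, 55.3 and 20.7 FPKM, so the sums do not stand for the list as a whole. Foxp3, the factor that defines regulatory T cells, was under the filter, at 0.861, 0.533 and 1.62 FPKM in WT and 0.404, 0.446 and 0.420 in KO. The part of regulatory T cells in the Ctla4 values was not tested. Follicular helper markers were at 12.9 to 26.8 FPKM in WT and 12.7 to 16.7 in KO, with 0 of 3 genes tested called by limma or voom (1 higher and 1 lower at an unadjusted p under 0.05), and Il21 was listed at 0 in all KO libraries. With a library left out, at most 1 follicular helper marker was called in each direction.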

How the data were processed

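The authors aligned paired-end reads and counted them per gene; the submitters' processing notes name HISAT2 2.0.5, featureCounts 1.5.0-p3 and the build GRCm38. Neither the annotation release nor strand use is given in the sources used here. The deposited values are FPKM per gene and library. FPKM multiplied by gene length gave whole reads within 0.01 in 100% of values, so reads were recovered; the authors' divisor was 0.645 to 1.21 times their total, so an unstated scaling factor is part of the FPKM. The study tested counts, but FPKM needs a log scale: log2(FPKM + 1) was tested with limma 3.58.1 (eBayes with trend, two-sided) in R 4.3.3, KO against WT, without a replicate block. With 3 libraries a group, exact permutation cannot give a p below 0.1.

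The receptors, lists and tests were chosen with earlier results of these data known. All receptors and ligands are named, with up to 4 called genes per direction of the coreceptors, signalling proteins and transcription factors. The result of 1 such gene is not reported here. The comparison of protein sequences planned with the design was not made here. The model was tested on simulated data. Alternatives were pseudocounts of 0.1 and 0.5, no filter, a mean FPKM minimum of 5, median-of-ratios, quantile, TPM and CD3 scaling, no trend, array weights, voom on recovered reads, a replicate block, a threshold of 0.01 and leaving out each library. TPM without WT 2 was added after seeing the data. Other tools were the R package data.table (1.17.8), Matplotlib 3.10.9, SciPy 1.17.1, NumPy 2.4.6, pandas 2.3.3 and Python 3.11.15.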

Additional observations from a re-analysis of the deposited data

How the results depend on the processing

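The number of receptors called higher was 2, and it was 1 (Ctla4) with no filter, a mean FPKM of at least 5, quantile normalization or a threshold of 0.01, and 1 to 3 with a library left out: 1 without WT 1, WT 3, KO 1 or KO 3, and 3 without WT 2. The number called lower was 3, and it was 1 (Btla) with TPM, CD3 scaling or a threshold of 0.01, 6 with array weights, and 1 to 4 with a library left out: 1 without WT 1, KO 2 or KO 3, and 4 without WT 2. Over all genes 3539 were called, 1837 with a mean FPKM of at least 5, 8461 with array weights and 1812 at a threshold of 0.01. With a library left out the number was 1934 to 6967, the highest without WT 2. It was 7761 with TPM and without WT 2. TPM moved the share of higher calls from 49.6% to 67.8%. The direction of Phf6 reversed with TPM (log2 fold change 0.69), without WT 1 (0.055) and without WT 3 (0.10), with a leave-one-out range from -0.374 to 0.10. The replicate numbers did not pair the libraries, since deviations of same-numbered libraries correlated at 0.0954, 0.105 and -0.153; with the replicate block 1 receptor was higher, 3 were lower and 2676 genes were called, and not every library correlated best with its own number. For Pdcd1, Havcr2 and Tnfrsf9 precision is limited by depth, with 1 to 138 reads per library. The cause of these changes was not tested.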
